A study of Mus musculus with 4 samples.

Results

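A CpG reads the same on both strands of DNA, so each one carries a forward cytosine and, 1 base further on, a reverse cytosine, and bisulfite sequencing can measure both. The CpGs described here are those of the 19 autosomes at which both cytosines had 20 reads or more in each of 4 mouse livers. They numbered 190592, or 18.9% of the 1006051 autosomal CpG dinucleotides with at least 1 strand at 10 reads or more in every mouse, and all lay on a CG of the reference genome. Livers came from 2 male mice of the mixed background (Mixed-1 and Mixed-2), an undefined background that includes C57BL/6J and other strains, and from 2 male Black-6 (C57BL/6) mice (B6-1 and B6-2). All were fed a normal diet and were 6 to 8 weeks old. The labels name no altered gene and no treatment. Whole liver was used, so the cell types of the organ were read together. DNA was cut with MspI, end-repaired, treated with bisulfite and sequenced in single-end reads of 50 cycles, by enhanced reduced representation bisulfite sequencing (ERRBS). The paper describes ERRBS as a method that combines MspI with another enzyme, TaqαI. Fragments are defined here by CCGG, the site of MspI, alone. The methylation level is the percentage of reads at a cytosine that were C, and the strand gap is the level on the forward strand minus that on the reverse strand, in percentage points. The Black-6 libraries were deeper, with a median coverage per strand over these CpGs of 58 and 57 reads against 48 and 51 in the mixed mice, and the 2 backgrounds were kept at different institutions. Strain, institution and depth cannot be told apart in 4 mice. Fragments were amplified before sequencing, so that reads can be copies of 1 molecule and intervals from read counts cover counting error only. Where 4 values follow each other below, the mixed mice come first and the Black-6 mice second, each by number.

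Replication leaves each CpG methylated on the parental strand only. UHRF1 recognizes this hemimethylated state and brings in DNMT1, which methylates the new strand, so that in most tissues both strands of a CpG come to carry the same mark. MspI cuts CCGG whether or not its CpG is methylated and leaves ends with a recessed 3′ strand. In such libraries these ends are filled in with free nucleotides during end repair, so the terminal CG of a fragment's 3′ end is copied in the tube rather than taken from the animal.

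Most of the large strand gaps lay at the ends of short MspI fragments, and 4 of these fragments are shown to make that geometry visible. They are forward-strand sequences of GRCm38, the capitals mark the CCGG at either end, and the CpG of each end is the middle pair of those letters.
Aox2 intron, chr1:58322210-58322261: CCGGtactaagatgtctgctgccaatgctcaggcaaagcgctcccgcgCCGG
Kmt5a exon, chr5:124461844-124461894: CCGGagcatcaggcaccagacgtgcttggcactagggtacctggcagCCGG
Rfc1 exon, chr5:65272174-65272225: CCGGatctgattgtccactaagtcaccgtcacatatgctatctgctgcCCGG
Nbas exon, chr12:13437116-13437169: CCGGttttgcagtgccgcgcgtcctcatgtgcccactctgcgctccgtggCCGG

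Over all 190592 CpGs the strands gave nearly the same level. The mean level was 14.8% ± 0.0408 on the forward strand and 14.8% ± 0.0461 on the reverse strand (SD, n = 4). The mean strand gap was 0.0161, 0.0165, 0.0349 and 0.0261 points, above 0 in every mouse, and a two-sided exact permutation (sign) test over the mice gave p = 0.13, the smallest that 4 mice allow. The mean absolute gap was 3.66 points ± 0.0417 (SD, n = 4), and the median was 0 points in every mouse. At 92.4% ± 0.503 of CpGs the strands lay within 10 points of each other, and at 94.1% ± 1.21 the gap lay inside the 95% range that counting error gives at their coverage (SD, n = 4). A CpG with no C read on either strand always counts as inside this range, so the share is raised by unmethylated CpGs. Pearson's r between strands, across CpGs, was 0.919, 0.916, 0.919 and 0.919. Spearman's rho, which uses ranks, was lower, at 0.782 ± 0.00959 (SD, n = 4). CpGs of 1 mouse share a library and neighbouring CpGs share reads, so these coefficients describe the libraries. The mean absolute gap was 3.63 ± 0.00649 in mixed mice and 3.69 ± 0.0341 in Black-6 mice (SD, n = 2). The strains' mice did not overlap in it, and the two-sided exact permutation test gave p = 0.3333, the smallest possible with 2 mice against 2.

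A small set of CpGs stood far from this. A gap of 40 points or more was measured at 4109, 4144, 3858 and 3923 CpGs. In all, 4601 CpGs had such a gap in at least 1 mouse, and 0 of them had it in opposite directions in different mice. Of the 4601, 3488 or 75.8% had the gap in the same direction in all 4 mice, and these are called repeated gaps below. They were 1.83% of both-strand CpGs. A further 325 had it in 3 mice, 319 in 2 and 469 in 1. The forward strand was higher at 1767 repeated gaps and the reverse strand at 1721. The 5 CpGs just inside the threshold had a smallest gap over the mice of 40 points, and the 5 just outside had 39.8 to 39.9 points. A logistic model of the reads, with the mouse as a block, called 3977 CpGs for a strand difference (adjusted p under 0.01 and a mean gap of at least 40 points), which is 2.09% of the 190592 tested. The forward strand was higher at 2014 of them and the reverse strand at 1963. All 3488 repeated gaps were among the called CpGs, and the other 489 called CpGs had a mouse below 40 points. A repeated gap meets the 40 points of a call by definition, and the model used the same reads. The overlap is therefore not a separate check.

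At repeated gaps 1 strand was methylated and the other was almost bare. The median level of the higher strand was 90.6%, 91.1%, 90.3% and 90.3%. The median of the lower strand was 3.57% in Mixed-1 and 0% in the other 3 mice. Depending on the mouse, the lower strand was hypomethylated (below 20%) at 91.9% to 95.8% of them, and the higher strand was hypermethylated (above 80%) at 74.6% to 77.5%. Median coverage per strand over the repeated gaps was 36 to 40 reads.

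Position relative to CCGG separated these CpGs from the rest. CpGs at CCGG made up 23.5% of both-strand CpGs and 99.7% of repeated gaps. Nearly all of the latter had another CCGG 46 to 50 bases away, counted from CpG to CpG. This range was chosen after the gaps had been seen by distance. It held 12811 both-strand CpGs (6.72%) and 3471 of the 3488 repeated gaps. The other 32005 CpGs at CCGG held 6 repeated gaps, and the 145776 CpGs not at CCGG held 11.

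By distance, only CpGs at CCGG whose other neighbouring CCGG lay more than 60 bases away were counted. Among these the edges of the range were sharp. With the neighbour before the CpG, 0 of 342 CpGs had a repeated gap at 45 bases, 63 of 275 at 46 bases, 427 of 1085 at 48 bases, 346 of 929 at 50 bases and 0 of 334 at 51 bases. With the neighbour after it, the counts were 0 of 339 at 45 bases, 57 of 274 at 46, 433 of 1051 at 48, 363 of 973 at 50 and 0 of 355 at 51. The mice were alike in this. At 48 bases with the neighbour after, 47.3%, 47.5%, 43.6% and 45.5% of CpGs had a gap of 40 points.

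**Figure D1:**
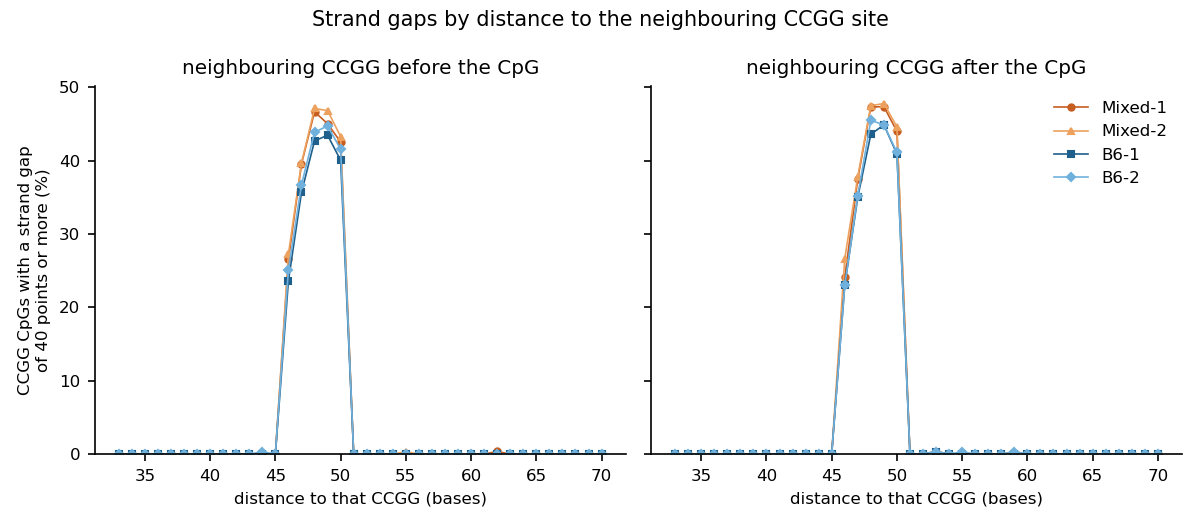
Share of both-strand CCGG CpGs with a strand gap of 40 points or more in each mouse (y axis, %), against the distance in bases to the neighbouring CCGG before (left) or after (right) the CpG (x axis). Only CpGs whose other neighbouring CCGG lay more than 60 bases away are counted. In both panels and all 4 mice the share is at or near 0 up to 45 bases, rises between 46 and 50 bases and is again at or near 0 from 51 bases.

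Which strand was low depended on the side of the neighbour. Of the 6251 CpGs whose only such neighbour lay before them, 1696 had a repeated gap with the reverse strand higher and 0 with the forward strand higher. Of the 6317 with the neighbour after them, 1750 had the forward strand higher and 0 the reverse strand. The 243 CpGs with such a neighbour on both sides had 11 forward and 14 reverse gaps. In each case with 1 neighbour the low cytosine was the one at the 3′ end of its strand of the short fragment. Whether read ends or adapters were trimmed before mapping is not given in the sources used here. The part of end repair, trimming or read length in these gaps was not tested.

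The other strand, whose cytosine lies at the 5′ end of its strand of the short fragment, was the higher one at every repeated gap with 1 such neighbour. A gap of 40 points in that direction needs this strand at 40% or more. Of the 7547 CpGs where it was below 20% methylated, 0 had a repeated gap in either direction. Of the 1730 CpGs where it was between 20% and 80%, 766 had a repeated gap, and of the 3291 above 80%, 2680. In this last class the mean level was 91.8% on that strand and 14.9% on the strand with its 3′ end at the site, with medians of 92.8% and 3.29%. Strands were assigned by position only, and the fragment that each read came from was not known.

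The level of the low strand also differed with the length of the fragment on the other side of the site. Among the 3291 CpGs with the other strand above 80%, the median level of the low strand was 2.30% at the 1939 CpGs whose other neighbour was over 320 bases away. It was 9.85% at 272 CpGs with that neighbour over 200 and up to 320 bases away, 49.0% at 480 CpGs with it over 100 and up to 200 bases away, and 55.6% at 275 CpGs with it at 51 to 100 bases. At 325 CpGs with the other neighbour under 46 bases away it was 1.91%, so the level did not run in 1 direction with length. The cause of these differences was not tested. The mean gap was at least 40 points at 100% of CpGs in the longest class and at 36.7% in the class of 51 to 100 bases.

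CpGs inside the same short fragments did not share the gaps of the ends. Both end CpGs were measured in 5915 fragments of this range. In 1318 of them the start had a repeated gap with the forward strand higher and the end one with the reverse strand higher, in 662 a single end had a gap, in 3935 neither had, and 0 fragments showed another arrangement. In the 1318, the start CpG averaged 88.1% ± 0.295 on the forward strand and 4.41% ± 0.999 on the reverse strand (SD, n = 4 mice). The end CpG averaged 4.70% ± 1.01 on the forward strand and 87.8% ± 0.476 on the reverse strand. The 1242 both-strand CpGs inside 785 of these fragments averaged 87.1% ± 0.438 and 86.9% ± 0.385, and 1 of them had a repeated gap. In these fragments the interior read as methylated on both strands and each end on 1.

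**Figure D2:**
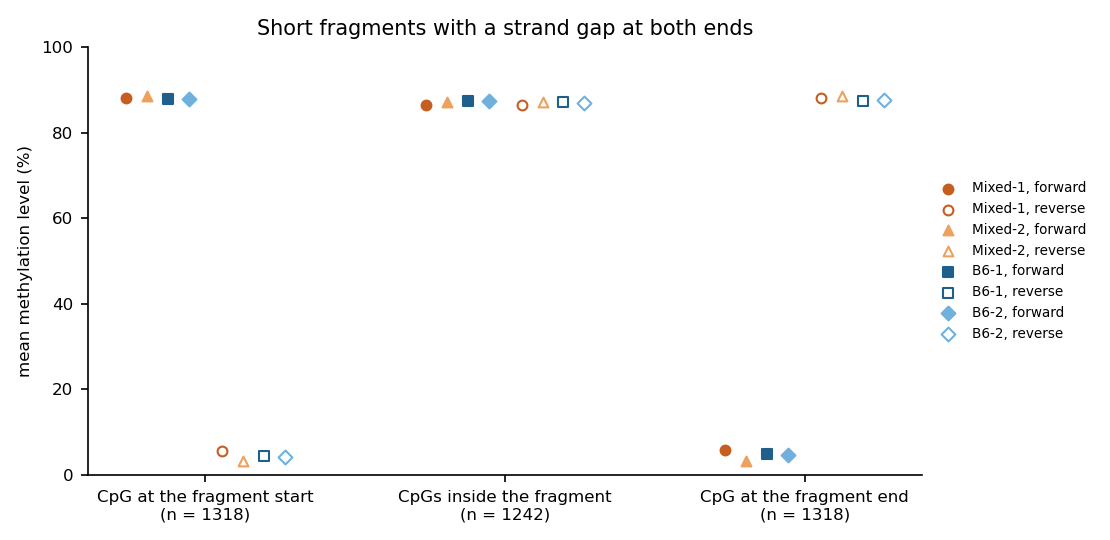
Mean methylation level (y axis, %) on the forward strand (filled) and the reverse strand (open) of CpGs at the start, inside and at the end of the 1318 fragments of 46 to 50 bases with a repeated gap at both ends, 1 marker for each mouse. Levels inside lie between 86.4% and 87.3% on both strands, while at the ends the low strand lies between 3.20% and 5.75%.

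The largest repeated gaps were of this kind, all 10 of the CpGs with the largest smallest gap (at most 1 per 1000 bp). In an intron of Aox2, an aldehyde oxidase gene, the CpG at chr1:58322211-58322212 read 100% on the forward strand and 0% on the reverse strand in all 4 mice. At the other end of the fragment, 48 bases on, the forward strand read 2.86% in Mixed-1 and 0% in the other mice and the reverse strand 100% in all. The 3 CpGs between them, 37, 43 and 45 bases from the start, averaged 93.6%, 90.3% and 84.4% on the forward strand and 99.4%, 96.1% and 95% on the reverse. The fragment's ends were mirror images of each other.

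An exon of Nbas, which acts in transport between Golgi and endoplasmic reticulum, showed the same arrangement over 5 interior CpGs. Its CpG at chr12:13437117-13437118 read 100% on the forward strand and 0% on the reverse in every mouse, the one 50 bases on averaged 1.47% and 100%, and the interior CpGs lay between 95.5% and 99.5% on both strands. In an exon of Kmt5a, the histone H4 lysine monomethyltransferase, the CpG at chr5:124461892-124461893 read 0% on the forward strand in all mice and 97.8%, 98.2%, 100% and 100% on the reverse strand in the 4 mice. In an exon of Rfc1, the large subunit of the replication clamp loader, the CpG at chr5:65272175-65272176 read 100%, 100%, 100% and 97.7% on the forward strand and 0% on the reverse strand. These CpGs were picked for the size of their gap in every mouse, so the separation of their strands is no further result. The other 6 lay in Atrn, Oma1, Man2a2, Map3k5 and Ube2e2 and between genes on chromosome 5, with the low strand at 0% to 2.00% and the high strand at 97.6% or more in each mouse.

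**Figure D3:**
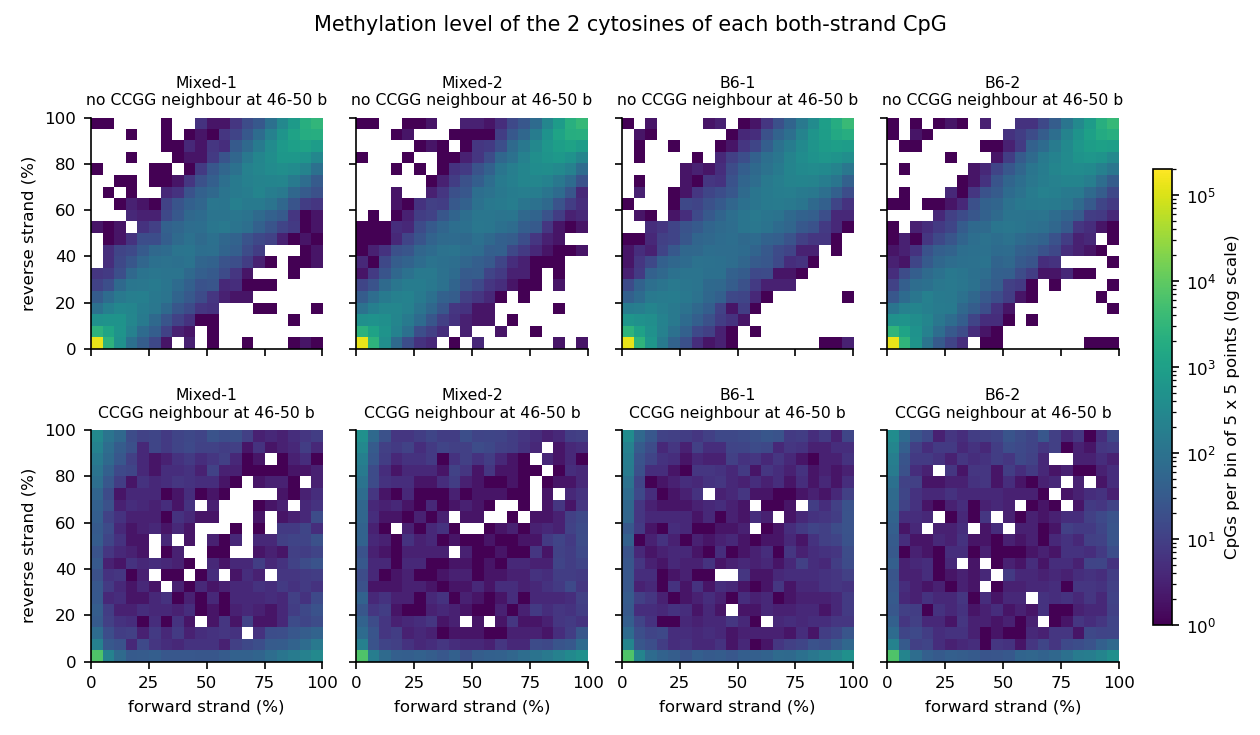
Number of both-strand CpGs (colour, log scale) by methylation level on the forward strand (x axis, %) and the reverse strand (y axis, %), in bins of 5 points, for each mouse. CpGs with no CCGG neighbour at 46 to 50 bases (top) follow the diagonal in all 4 mice, while CCGG CpGs with such a neighbour (bottom) gather along both axes and at the lower left corner.

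Repeated gaps were spread over the genome. They made up 1.46% (chromosome 19) to 2.15% (chromosome 12) of both-strand CpGs on each autosome. By RefSeq, 38.1% lay in introns, 35.3% between genes, 21.1% in exons and 5.53% within 1000 bp of a gene start, where 73.9% of all both-strand CpGs lay. CpG islands held 1.61% of them against 75.5% of all, and the open sea, more than 2000 bp from an island, held 93.8% against 19.1%. Soft-masked repeats held 17.5% against 4.12%. A gap of 40 points needs a strand at 40% or more, and these shares were not compared at like methylation level. Outside the range, the forward strand averaged 2.08% in islands and 67.5% in the open sea. Of all CCGG CpGs with a neighbour at 46 to 50 bases, 55.3% lay within 1000 bp of a gene start and 40.01% in the open sea. Within 1000 bp of each other the repeated gaps formed 2154 groups, of which 833 were single CpGs, 1311 were pairs and 10 held 3 or 4 CpGs. The groups of 4 lay between genes on chromosome 3, across Phc2 and Gm33712 on chromosome 4, and in AY036118 on chromosome 17, and each had 2 gaps in either direction. Of the groups of 3, the naming rule took 2, which lay between genes on chromosome 1 and in an intron of Slc26a9, which encodes an anion transporter. Gse1 held the most repeated gaps of any gene, 8 among 226 both-strand CpGs, followed by Cdh13, an atypical cadherin, with 7 among 44.

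Without the CpGs of that range the strands agreed more closely. Over the remaining 177781 CpGs, Pearson's r between strands was 0.988 to 0.990 across the mice, the mean absolute gap was 1.963 points ± 0.0870, and 94.7% ± 0.558 lay within 10 points (SD, n = 4). The share inside the 95% range of counting error was 96.6% ± 1.28, again with CpGs that had no C read on either strand counted as inside. The mean gap was -0.00355 points ± 0.00516, so the sign over all CpGs was not kept. Gaps of 40 points were found at 82, 80, 77 and 66 CpGs in the 4 mice. For comparison, within the range r was 0.0307 to 0.0997 and 60.1% ± 0.265 lay within 10 points. Across CpGs, the gap of 1 mouse correlated with that of another at r between 0.861 and 0.891 over all both-strand CpGs, and at r between 0.0885 and 0.166 outside the range, over 177781 CpGs that share their base composition and fragment ends between mice.

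Agreement outside the range differed between classes of level. The classes were cut on the mean of both strands, which limits the mean gap possible in the lowest and highest class. Counting error is also largest at intermediate levels. The 146294 CpGs with a mean level below 20% had a mean absolute gap of 0.825 points ± 0.0217, the 11583 between 20% and 80% one of 9.81 ± 0.487, and the 19904 above 80% one of 5.76 ± 0.349 (SD, n = 4). Within these classes, from the lowest level to the highest, Pearson's r between strands was 0.694 ± 0.0354, 0.813 ± 0.0155 and 0.406 ± 0.0300. Each class holds only part of the range of levels, which bears on r. The share inside the range of counting error was 86.3% ± 4.28 for intermediate CpGs and 88.7% ± 3.84 for those above 80%. For CpGs below 20%, which include those with no C read, it was 98.4% ± 0.701. Promoter CpGs had a mean absolute gap of 0.833 points ± 0.0271, exon CpGs 4.98 ± 0.262, intron CpGs 5.64 ± 0.301 and intergenic CpGs 5.69 ± 0.267. Island CpGs had 0.857 ± 0.0246, shore CpGs 3.505 ± 0.162 and open sea CpGs 6.35 ± 0.341. Most island and promoter CpGs were unmethylated on both strands, with means of 2.08% and 2.23% on either.

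Imprinted genes carry methylation on the allele of 1 parent, which puts many of their CpGs at an intermediate level with both strands of that allele marked. Of the 41 imprinted genes listed, 35 had both-strand CpGs, 405 in all. Of these 8 (1.98%) were called, 4 in either direction, and 6 (1.48%) had a repeated gap, beside 2.09% and 1.83% of all both-strand CpGs. All 8 lay at CCGG with a neighbour at 46 to 50 bases. Outside that range, 0 of 369 were called, and the median absolute mean gap was 1.17 points against 0.278 for all. Among the 143 at 20% to 80% it was 4.07 points, against 4.42 for all 11583 such CpGs, and 87.4% were within 10 points against 86.5%.

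Gnas, which encodes the stimulatory G protein alpha subunit among other transcripts, had the most both-strand CpGs of the list, 89, and 0 were called. Its 45 intermediate CpGs averaged 48.7%, 48.9%, 44.6% and 44.0% on the forward strand and 48.6%, 49.3%, 39.97% and 45.8% on the reverse strand in the 4 mice. The 34 CpGs at Zdbf2 averaged 2.30% and 2.11% and the 32 at Igf2, the growth factor gene, 1.34% and 1.20%, so these were bare on both strands. Levels of the strands also overlapped between mice at Plagl1, a zinc finger gene, where 13 intermediate CpGs averaged 39.9% on the forward and 40.9% on the reverse strand, and at Peg3, with 40.2% and 40.2% over 3 CpGs. At Igf2r, the receptor that clears IGF2, and its antisense transcript Airn, which share their 16 intermediate CpGs, the reverse strand was higher in each mouse, with 39.97%, 43.3%, 30.8% and 34.6% on the forward and 47.6%, 48.4%, 41.2% and 42.2% on the reverse strand. The median absolute mean gap of these 16 was 7.60 points and the largest 22.5 points. At Peg12, an imprinted gene with 7 intermediate CpGs, the reverse strand was also higher in each mouse, with 26.3%, 20.8%, 26.4% and 19.5% on the forward and 26.9%, 23.8%, 26.7% and 33.1% on the reverse strand. The strands were nearly equal there in Mixed-1 and B6-1. At both Igf2r and Peg12 the levels of the strands overlapped between mice, and the shared direction was not tested.

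**Figure D4:**
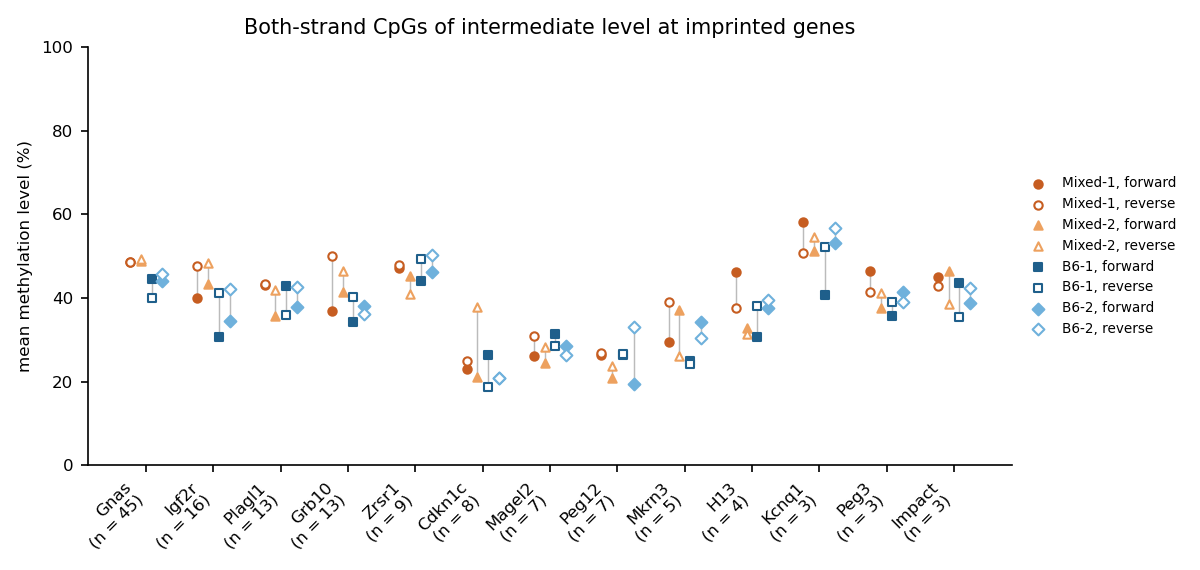
Mean methylation level (y axis, %) on the forward strand (filled) and the reverse strand (open) of both-strand CpGs with a level of 20% to 80% and no CCGG neighbour at 46 to 50 bases, at 13 imprinted genes with 3 or more such CpGs (x axis, with their number), 1 pair of markers for each mouse. At Gnas, with 45 CpGs, neither strand is higher in all mice, while at Igf2r and Peg12 the reverse strand is higher in each mouse. At Peg12 the strands nearly meet in Mixed-1 and B6-1.

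The called imprinted CpGs had the fragment-end pattern. At the Airn promoter within Igf2r, the CpG at chr17:12769835-12769836 read 0%, 2.27%, 2.17% and 3.51% on the forward strand and 50.0%, 38.5%, 36.4% and 45% on the reverse strand in the 4 mice, so the intermediate level appeared on 1 strand only. In Kcnq1, a potassium channel gene, the CpGs of a fragment at chr7:143192639-143192640 and 47 bases on averaged 93.3% and 4.50%, and 1.04% and 96.7%, on forward and reverse strands. In Inpp5f, a phosphoinositide phosphatase gene, a pair 48 bases apart averaged 98.9% and 3.56%, and 2.63% and 92.8%. Cdh15, a muscle cadherin gene, had 1 repeated gap (96.6% and 3.07%). Grb10, an adaptor of growth factor receptors, had 1 repeated gap (76.5% and 0%) and, 49 bases on, 1 called CpG with 1.39% and 52.1%.

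Genes that write, keep or remove methylation had 252 both-strand CpGs at 9 of 12 genes, of which 4 (1.59%) had a repeated gap and were called, beside 1.83% and 2.09% of all both-strand CpGs. All were end pairs. In an intron of Dnmt1, the maintenance methyltransferase, the CpG at chr9:20920706-20920707 averaged 93.2% forward and 3.90% reverse and the one 50 bases on 3.26% and 91.1%. In an exon of Dnmt3b, a de novo methyltransferase, the CpG at chr2:153686573-153686574 read 100%, 97.8%, 94.6% and 100% on the forward strand and 16%, 11.4%, 54.1% and 48.9% on the reverse strand, so that the low strand was higher in both Black-6 mice than in both mixed mice. Its partner 49 bases on averaged 0.595% and 96.4%. Dnmt3a, the other de novo enzyme, had the most both-strand CpGs here, 84, with 0 called, followed by Dnmt3b with 35 and Tet3, an oxidase of methylcytosine, with 33.

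The 4 measured genes of the CTCF and cohesin list had 89 both-strand CpGs, with 0 called and 0 repeated gaps, beside 2.09% and 1.83% of all, so that few would be called among 89 at that share. Ctcf, whose protein binds DNA at domain borders, had 44 that averaged 0.156% and 0.132%, Stag1, a cohesin subunit gene, 21 and Rad21, the cohesin ring's kleisin gene, 20. The 13 measured hepatocyte genes had 167, with 0 repeated gaps and 1 called (0.599%, beside 2.09% of all). With so few CpGs these counts are a description only. The called CpG lay in an exon of Tat, the tyrosine aminotransferase gene. It averaged 41.1% on the forward strand and 0.595% on the reverse, with a CCGG 48 bases after it. The 40 CpGs at Foxa1 averaged 3.15% and 3.31%, the 37 at Cebpb 0.206% and 0.262%, and the 36 at Foxa2 0.657% and 0.522%. All 3 encode liver transcription factors, and both strands of these genes were near 0.

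Outside the range, 17 CpGs had a repeated gap, 0.00956% of 177781, and 38 were called, 14 with the forward strand higher and 24 with the reverse. The sequence around several of them is shown, 62 forward-strand bases of GRCm38 with the CpG in capitals, because these are the CpGs whose gap is not at the end of a fragment of that length.
Brpf1 intron, chr6:113309276-113309337: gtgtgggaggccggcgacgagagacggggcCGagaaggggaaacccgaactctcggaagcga
Prkd2 exon, chr7:16858484-16858545: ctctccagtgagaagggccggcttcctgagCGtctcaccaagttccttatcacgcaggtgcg
Reln intron, chr5:22071420-22071481: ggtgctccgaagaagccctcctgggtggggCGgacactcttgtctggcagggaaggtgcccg
Galnt13 intron, chr2:54885799-54885860: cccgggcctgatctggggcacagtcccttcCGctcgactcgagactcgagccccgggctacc
Sema6d intron, chr2:124352951-124353012: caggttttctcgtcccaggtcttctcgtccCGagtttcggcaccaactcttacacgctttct
Jarid2 intron, chr13:44869624-44869685: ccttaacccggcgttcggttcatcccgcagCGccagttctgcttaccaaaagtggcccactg
Dph5 intron, chr3:115916879-115916940: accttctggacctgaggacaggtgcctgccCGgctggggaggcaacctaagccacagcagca

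Of the 17, 11 had the reverse strand higher and 6 the forward strand, 10 lay between genes, 6 in introns and 1 in an exon, and 9 were in soft-masked sequence. At 5 of them a strand had over 500 reads in a mouse. At CCGG lay 6 of them, among them the Dph5 CpG at chr3:115916909-115916910, with sites 45 bases before and 51 after it. Dph5 makes diphthamide on an elongation factor. The CpG read 0% on the forward strand in all mice and 97.0%, 100%, 100% and 100% on the reverse strand. Between genes on chromosome 4, the CCGG CpG at chr4:10137201-10137202 read 89.1%, 89.1%, 89.4% and 86.02% on the forward strand, over 193 to 489 reads, and 0% on the reverse strand, over 100 to 290 reads. Its nearest sites in the reference were 41 bases before and 125 after it.

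Brpf1, a scaffold of histone acetyltransferase complexes, had 1 such CpG among the 5 both-strand CpGs of a fragment. At chr6:113309306-113309307 the forward strand read 89.5%, 86.4%, 88.3% and 87.5% and the reverse strand 37.5%, 34.0%, 46.8% and 41.7% in the 4 mice, over 44 to 72 reads. The 3 next CpGs, 15, 23 and 29 bases on, averaged 84.1%, 83.3% and 85.9% on the forward and 42.5%, 38.6% and 45.7% on the reverse strand, and all were called. The CpG 6 bases before averaged 79.3% and 54.7%. The forward strand was higher in all 4 mice at each of the 4 called CpGs, on reads that run over several of them, so they are not independent measurements.

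At Prkd2 and Galnt13 the other CpGs of the fragment did not share the gap. In an exon of Prkd2, protein kinase D2, the CpG at chr7:16858514-16858515 read 44.7%, 23.7%, 22.5% and 24.5% on the forward strand and 93.5%, 90.9%, 88.0% and 96.2% on the reverse strand, over 25 to 49 reads. The CpGs 22, 30 and 37 bases on averaged 26.6%, 31.7% and 32.7% on the forward strand and 36.7%, 41.3% and 43.6% on the reverse. The Reln CpG, in an intron of the reelin gene at chr5:22071450-22071451, was the only both-strand CpG of its fragment. It read 34.1%, 34.9%, 37.1% and 28.8% forward and 96%, 97.4%, 98.6% and 97.3% reverse. Galnt13 encodes a glycosyltransferase, and the CpG of its intron at chr2:54885829-54885830 read 48.9%, 47.0%, 44.0% and 44.2% forward, over 186 to 293 reads, and 91.4%, 94.9%, 98.9% and 96.3% reverse, over 58 to 92 reads. The CpGs 4, 9 and 16 bases on from it had mean gaps of 0.0753, 2.36 and 2.20 points, so neighbours on the same reads had like strands. Strands did not overlap between mice at any of these.

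Some gaps came with unequal coverage of the strands. In an intron of Jarid2, which encodes a partner of the Polycomb complex PRC2, the CpG at chr13:44869654-44869655 read 15.6%, 26.2%, 10.3% and 10.1% on the forward strand, over 6699 to 8591 reads, and 90%, 88.7%, 97.7% and 95.2% on the reverse strand, over 43 to 63 reads. At Sema6d, a semaphorin gene, the intronic CpG at chr2:124352981-124352982 read 7.34%, 7.67%, 11.2% and 11.9% over 834 to 1010 forward reads and 100%, 95%, 95.7% and 94.3% over 26 to 53 reverse reads. The pair at chr17:39845782-39845783 and 2 bases on, with AY036118 as the nearest gene start, had 8382 to 10787 forward reads and 689 to 1876 reverse reads, and averaged 11.8% and 10.2% on the forward strand and 68.6% and 83.0% on the reverse. With Jarid2 these were the 3 repeated gaps of highest coverage. The part of reads from other copies of the sequence was not tested.

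**Figure D5:**
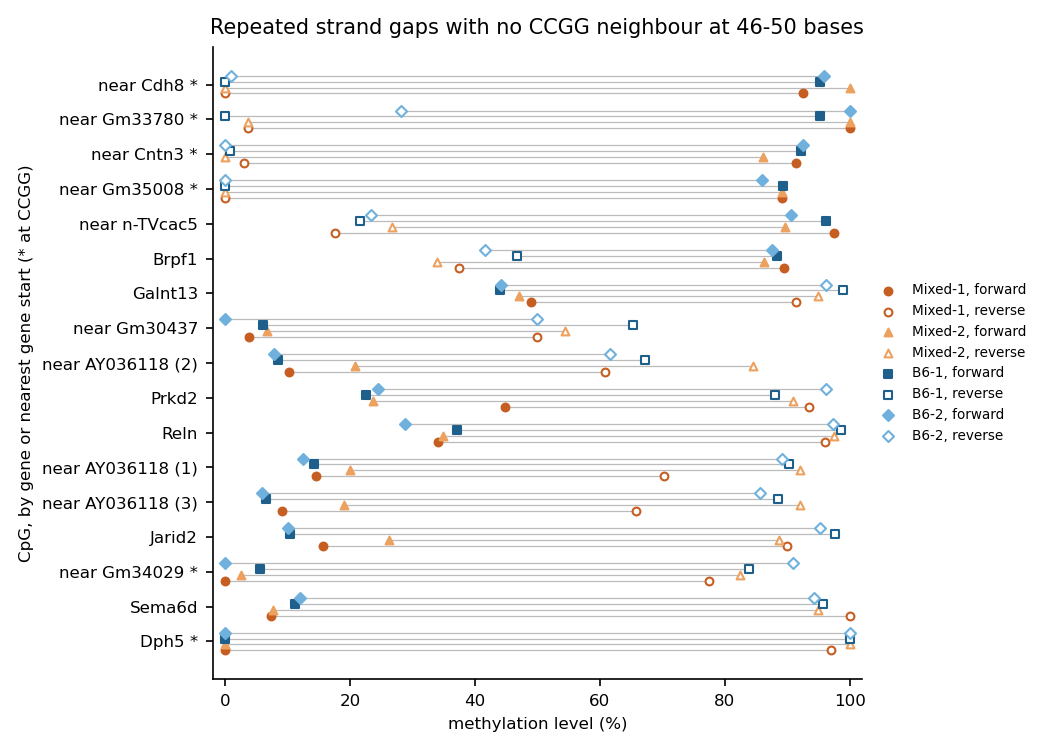
Methylation level (x axis, %) on the forward strand (filled) and the reverse strand (open) of the 17 CpGs with a repeated gap and no CCGG neighbour at 46 to 50 bases, by gene or nearest gene start (y axis), 1 line for each mouse. In every line the strands lie at least 40 points apart, as the choice of these CpGs requires. The reverse strand is higher at 11 CpGs and the forward strand at 6.

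Several of these windows shared sequence. Among 59 windows of 62 bases around CpGs outside the range that had a gap in 2 or more mice or were called, 8 of 1700 pairs at different loci shared a run of 15 or more bases, and these involved 10 CpGs, of which 4 had a repeated gap. The windows in Erbb4 (chr1:68625154-68625155) and near Gm22469 (chr14:37261132-37261133) shared 43 bases on opposite strands. The Dph5 window shared 16 bases with that of chr6:102667018-102667019, near Cntn3, which is also a CCGG CpG and read 91.4%, 86.1%, 92.2% and 92.5% forward and 3.03%, 0%, 0.806% and 0% reverse. The Sema6d window shared 16 bases with that of chr2:71948908-71948909.

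At 41 more CpGs outside the range the gap was in 2 or 3 mice. Among these, near the start of Bmp4, a secreted ligand of the TGF-beta family, the CpG at chr14:46390809-46390810 read 11.1%, 1.75%, 0% and 0% on the forward strand and 50.0%, 50.0%, 41.3% and 39.1% on the reverse strand. At a promoter of Septin9, a cytoskeletal filament gene, chr11:117232710-117232711 read 3.45%, 0%, 0% and 0% forward and 54.5%, 38.6%, 61.8% and 44.9% reverse. In an intron of Camta1, a transcription activator gene, chr4:151136749-151136750 read 97.8%, 97.9%, 100% and 98.5% forward and 44.4%, 65.6%, 59.3% and 60.8% reverse. All 3 were called. At these CpGs 1 strand was near an extreme and the other at an intermediate level in all mice.

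The strain comparison rested on 2 mice against 2. The model called 2 CpGs for a gap that differed between mixed and Black-6 mice (adjusted p under 0.01 and a difference of at least 40 points), 0.00105% of those tested, and 62 CpGs had that difference at an unadjusted p under 0.05. Limma on log2 ratios called 0 CpGs, the model with the replicate block 6, and leaving out 1 mouse gave 3 to 8, with 8 without Mixed-1. Both of the 2 lay outside the range. At chr5:146261047-146261048, in an intron of Cdk8, the Mediator kinase gene, the forward strand read 11.8%, 21.01%, 8.03% and 6.44% over 6275 to 7287 reads in the 4 mice, and the reverse strand 28.2%, 38.3%, 68.1% and 69.2% over 78 to 252 reads. The gap was larger in Black-6 mice by 44.6 points (adjusted p = 2.21e-05 by the moderated model). The CpG 12 bases on had a strain difference of 37.8 points, under the 40 needed for a call, on the same reads. The CCGG CpG at chr2:98666262-98666263, between genes, read 91.9%, 93.9%, 95.98% and 95.4% on the forward strand and 73.9%, 68.9%, 2.41% and 17.5% on the reverse, a gap that was -64.2 points in mixed minus Black-6 (adjusted p = 4.35e-05 by the same model). Its forward coverage was 313 to 531 reads in mixed and 2524 to 4598 in Black-6 mice, so coverage moved with strain too, and its part was not tested.

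A gap of 40 points in both mixed mice with under 20 points in both Black-6 mice was found at 21 CpGs, 12 of them outside the range, and the converse at 1, the Cdk8 CpG above. The mixed libraries were shallower. Of the 5 largest, 3 lay outside the range. At chr11:84960108-84960109 in an intron of Car4, a carbonic anhydrase gene, the forward strand read 69.6%, 75.8%, 32.4% and 57.1% and the reverse strand 4.55%, 7.89%, 52.1% and 45.7%. At chr2:71537533-71537534 in a promoter of Dlx1as, an antisense transcript of a homeobox gene, it read 89.3%, 88.9%, 35.8% and 27.8% forward and 30.9%, 17.02%, 18% and 32.4% reverse. At chr14:37261132-37261133 it read 33.2%, 30.4%, 84.04% and 77.2% forward and 87.8%, 87.5%, 95.05% and 94.02% reverse, over 334 and 378 forward reads in the mixed mice and 94 and 79 in the Black-6 mice. The other pair, in Ntn1 and Gm20426, had a CCGG 49 bases after them. These were picked for this pattern, and the model's adjusted p for the strain difference was 0.1245 at Car4, 0.418 at Dlx1as and 1 at the other 3.

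The 3 CpGs of smallest p for the strain difference were all near AY036118 on chromosome 17, at coverages of 1393 to 14154 reads, and had differences under 40 points. At chr17:39845859-39845860 the forward strand read 12.2%, 19.96%, 7.37% and 6.495% and the reverse strand 44.1%, 65.7%, 6.02% and 6.14% (difference of gaps -39.7 points, adjusted p = 3.03e-12 by the moderated model). The reverse strand was thus higher than the forward in both mixed mice and slightly lower in both Black-6 mice. At the other pair the gap was larger in mixed mice by 9.63 points (adjusted p = 2.28e-06) and 13.1 points (adjusted p = 5.34e-06 by that model), less than the threshold for a call.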

How the data were processed

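ERRBS libraries of 4 livers were used, 2 of each strain, grouped by their labels. The authors mapped reads to mm10 (their methods name BSMAP, the labels' processing notes Bismark and SAMtools) and deposited, for each cytosine and strand, the read count without normalization and the percent of reads that were C or T, keeping cytosines with 10 reads or more. Reads of C were computed from percent and coverage. CpGs were placed on GRCm38 with RefSeq genes; islands were called by length (200 bp), GC content (50%) and observed to expected ratio (0.6). Each CpG was fitted with a logistic model of C reads on mouse and strand (and strand by strain), with its overdispersion squeezed to a prior in limma 3.58.1 (R 4.3.3), and p-values were adjusted over all 190592 CpGs by Benjamini-Hochberg. The prior was estimated from CpGs with 20 methylated and 20 unmethylated reads on each strand over the mice, a choice made after a first fit had been seen, and gave an overdispersion of 1.60. The model was tested on simulated data. Tables were made with Python 3.11.15, numpy 2.4.6 and pandas 2.3.3. Mean coverage was 44.2 to 63.7. The members, gene lists and tests were chosen with earlier results of these data known.

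CpGs were named by rule: the 10 of largest smallest gap, up to 5 of gaps in each strain alone, the 5 largest groups, the 3 of highest coverage, gene list members and the 3 of smallest strain p. Those at Brpf1, Prkd2, Reln, Galnt13, Sema6d, Dph5, Bmp4, Septin9, Camta1 and chromosomes 4 and 6, and the genes with most gaps, were chosen after their values were seen. Same-numbered mice deviated with a correlation of 0.00201 and their numbers pair no mice. Alternatives changed coverage limits, the denominator, repeats, CCGG sites, thresholds, tests and mice. Sex chromosomes were not used here.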

Additional observations from a re-analysis of the deposited data

Results flagged for a closer look

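The strand gap differed between the strains at 2 CpGs by the logistic model's test of that difference. Limma on log2 ratios called 0 CpGs, and the count ran from 0 to 8 under the settings tried. At chr2:98666262-98666263 the difference, mixed minus Black-6, was -64.2 points, with mean gaps of 21.5 points in mixed and 85.7 points in Black-6 mice. Its forward coverage was 531, 313, 4598 and 2524 reads. At chr5:146261047-146261048 in Cdk8 it was 44.6 points, with mean gaps of -16.8 and -61.4 points, at a forward coverage of 6275 to 7287 reads.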

How the results depend on the processing

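Of 119 alternative values, 83 stayed within the bounds of the main ones. With coverage of at least 10, 5351 CpGs had a repeated gap (99.3% at CCGG) and 6048 were called, the mean gap was 0.0119 points, the mean absolute gap 4.29, r 0.914, and 90.6% lay within 10 points. With coverage of at least 50, 11 had a repeated gap (72.7% at CCGG, 45.5% with the forward strand higher) and 14 were called, the mean absolute gap was 1.12, r 0.986, and 98.1% lay within 10 points; only 11 of the 3488 repeated gaps have 50 reads on each strand in every mouse. Without soft-masked sequence the mean absolute gap was 3.36 and r 0.923. Without CCGG CpGs, 11 had a repeated gap (18.2% with the forward strand higher), 30 were called, and the mean gap was -0.0102, the mean absolute gap 1.75, r 0.989 and the share within 10 points 95.2%. Without the CCGG CpGs that have another CCGG 46 to 50 bases away, an alternative chosen after seeing the data, 17 had a repeated gap (35.3% at CCGG, 35.3% with the forward strand higher), 38 were called, and the mean gap was -0.00355, the mean absolute gap 1.963, r 0.989 and the share within 10 points 94.7%. The share at CCGG was 99.3% with a gap of 30 points and 99.4% with gaps in 3 mice. For the strain difference, limma on log2 ratios called 0 CpGs (in place of 2), the fit with the replicate block called 6, and the cause was not tested.
Leaving out 1 mouse gave 3532 to 3641 repeated gaps, 3915 to 4027 called CpGs, 3 to 8 strain calls (8 without Mixed-1), a mean gap of 0.0196 to 0.0258, a mean absolute gap of 3.64 to 3.67, r of 0.918 to 0.919, 92.2% to 92.6% within 10 points, 99.6% to 99.7% at CCGG and 50.4% to 50.8% with the forward strand higher. The numbers pair no mice. At 20 reads a strand's level moves in steps of 5 points, and groups of 2 mice limit the strain comparison.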
